A study of Mus musculus with 2 samples.

Results

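The genes described here encode the m6A methyltransferase complex, the enzyme assembly that writes N6-methyladenosine (m6A) into messenger RNA. The 9 members were taken by name (Mettl3, Mettl14, Wtap, Rbm15, Rbm15b, Zc3h13, Cbll1, 1110037F02Rik and Mettl16) from the 27998 genes of the deposited tables, and all 9 were found once. All 9 reached 100 UMIs (unique molecular identifiers, each standing for 1 captured RNA molecule) over both libraries. 1110037F02Rik is the older symbol of Virma and is given here as 1110037F02Rik (Virma).

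Within the complex, METTL3 carries the catalytic site and METTL14 holds the RNA substrate, so that the pair works as a unit. WTAP anchors this pair to a larger regulatory group in which RBM15 and RBM15B bind RNA and recruit the enzyme, VIRMA serves as the scaffold, ZC3H13 bridges the RNA-binding arm to WTAP, and CBLL1, also called HAKAI, is an E3 ubiquitin ligase. METTL16 is a methyltransferase of its own, known for acting on U6 RNA and on the messenger of the methyl donor synthetase Mat2a. In skin, the mark is studied for its part in hair follicle formation and in the renewal of epidermal progenitors.

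The series compared single epithelial cells of back skin from mouse embryos at embryonic day 17, strain C57BL/6, in 1 library of each genotype. The control (Ctrl) was Mettl3 fl/+, Rosa16-YFP fl/+, K14Cre, and the conditional knockout (cKO) was Mettl3 fl/fl, Rosa16-YFP fl/+, K14Cre, so that both carried the Cre, the reporter and at least 1 floxed allele, and control cells are heterozygous wherever the Cre acted. The Cre is driven by the Keratin 14 promoter, which limits deletion and YFP to the epithelial lineage. Before capture with the 10x Genomics 3′ kit, YFP+ cells without lineage markers were sorted. They were gated further on surface integrins to enrich for skin progenitors. Shares of cell types and of cycling cells are those of this sorted fraction. The number of embryos behind a library was not given in the sources used here.

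With 1 library per genotype, no difference between Ctrl and cKO has a replicate check, and none was tested. Levels are the CPM of a gene, its UMIs over all UMIs of a group of cells scaled by 1000000, with an exact 95% Poisson interval, and ratios of cKO to Ctrl carry an exact conditional binomial 95% interval. These intervals cover counting error only. Barcodes with at least 1800 genes were kept, which left 4447 cells and 43874554 UMIs in Ctrl, and 3577 cells and 34116275 UMIs in cKO, at medians of 8941 and 8581 UMIs per cell, and 16 kept barcodes occurred in both libraries. The Ctrl cells held 89523 UMIs of Xist, a transcript of female cells, and the cKO cells held 1, so genotype and sex cannot be told apart. All 9 members lie on autosomes. Epithelial identity was checked on 6 markers (Krt14, Krt5, Krt15, Trp63, Epcam and Cdh1), of which none was at 0 and which summed to 17520 CPM in Ctrl and 11585 CPM in cKO cells. Over all kept cells, in Ctrl and cKO, the 4 melanocyte markers summed to 20.8 and 5.72 CPM, the 3 Schwann cell markers to 3.67 and 4.43 CPM, the 6 fibroblast markers to 741 and 646 CPM, the 3 endothelial markers to 4.51 and 5.16 CPM and the 5 immune markers to 8.80 and 7.50 CPM. Dcn carried most of the fibroblast sum. In basal cells of Ctrl and cKO it alone stood at 785 and 671 CPM, where all 6 fibroblast markers summed to 799 and 678 CPM. The 4 cornified-layer markers summed to 4083 and 3168 CPM over all kept cells. At 0 were Kdr, Ptprc, Cd207 and Flg in Ctrl and Cdh5, Lyz2, Cd207 and Flg in cKO. Their part in the results was not tested.

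Mettl3, the gene that the cKO targets, was measured first. It lies on the minus strand at chr14:52294841-52305128 of GRCm38 (ENSMUSG00000022160), and it overlaps Tox4 on the opposite strand. The floxed exon 4, shown because it is the stretch that the Cre deletes, is coding over its whole length and spans chr14:52298640-52298815 in the GENCODE vM21 transcript Mettl3-201, which has 11 exons. Its 176 bases read 5′ to 3′ on the gene's strand as follows, with no part marked in capitals.

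Mettl3 exon 4: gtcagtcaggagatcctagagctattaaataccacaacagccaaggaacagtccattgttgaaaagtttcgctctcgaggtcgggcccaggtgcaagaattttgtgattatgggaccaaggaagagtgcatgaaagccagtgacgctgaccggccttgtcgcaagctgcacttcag

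The length of this exon leaves a remainder of 2 when divided by 3, so the reading frame after it is not kept when it is lost. A 3′ tag is read near the poly(A) end, and 1161 bases lie between the start of this exon and the end of the transcript. A Mettl3 UMI can therefore come from a deleted as well as from an intact allele, and its level does not check the deletion.

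Mettl3 had 557 UMIs in Ctrl and 211 in cKO cells, at 12.7 (11.7 to 13.8) and 6.18 (5.38 to 7.08) CPM. The ratio of cKO to Ctrl was 0.487 (0.414 to 0.572), and 46 genes had a lower one among the 11159 that reached 100 UMIs in all. At a fixed size, a level at least 25% higher or 20% lower in cKO (the same fold either way), Mettl3 was the 1 member of 9 that was lower, where 8.41% of all these genes were. At 2-fold it was again 1 of 9, against 0.457% of all genes. Mettl3 transcripts were thus fewer in the cKO library and still present there.

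**Figure D1:**
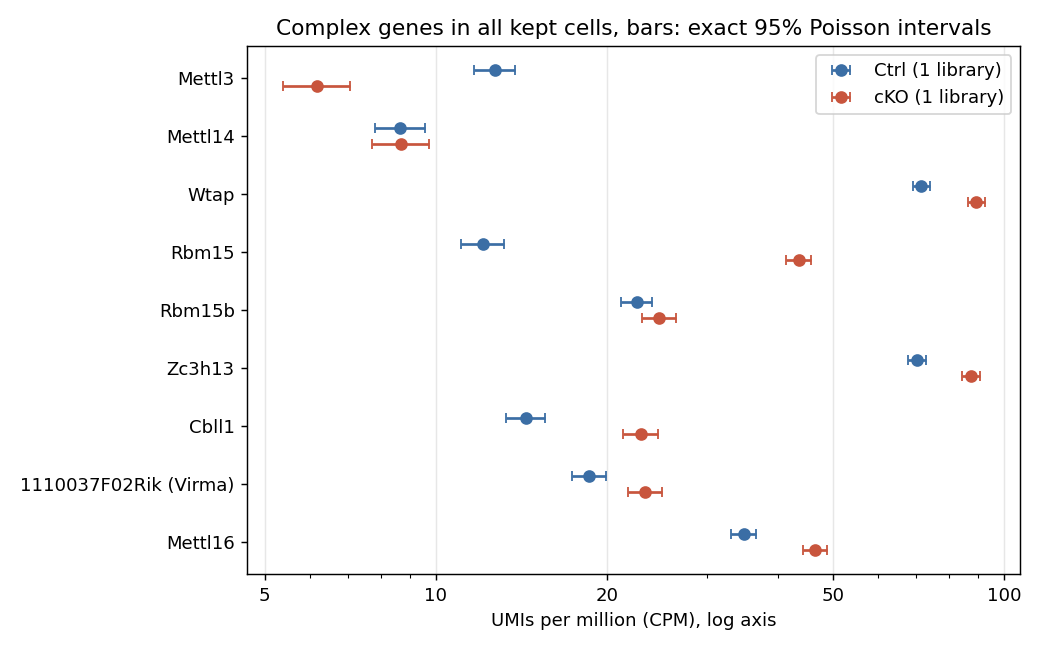
Level of each of the 9 complex genes in all kept cells of the Ctrl library (blue) and the cKO library (red), as CPM on a log axis, with exact 95% Poisson intervals. Mettl3 lies lower in cKO, Mettl14 and Rbm15b overlap between the libraries, and Rbm15 shows the widest gap, from 12.1 to 43.6 CPM.

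Mettl14, the substrate-binding partner (ENSMUSG00000028114, chr3:123368297-123386108, minus strand), was level between the libraries. Its 380 Ctrl and 296 cKO UMIs gave 8.66 (7.81 to 9.58) and 8.68 (7.72 to 9.72) CPM. The ratio was 1.00 (0.858 to 1.17), an interval that leaves out, as far as counting goes, a level 25% higher or 20% lower.

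Rbm15, which brings the complex to its RNA targets, stood furthest from Ctrl. It lies on the minus strand at chr3:107325421-107333673 (ENSMUSG00000048109), and 2866 of its 2886 coding bases, or 99.3%, sit in a single exon, which is longer than the longest coding exon of 98.5% of the measured genes with a coding sequence. The letters GGACT, a common form of the motif that the METTL3 and METTL14 pair methylates, were searched on the coding strand as background to these levels. They occurred 2 times in the Rbm15 coding sequence and at least once in 76.1% of the 10820 coding sequences searched. Both places are shown with 12 bases on each side, read 5′ to 3′ from GENCODE vM21 (GRCm38) with the motif in capitals.

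Rbm15 coding base 186, chr3:107332879-107332907, minus strand: ccgtggcggtgaGGACTccagttctcgtg

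Rbm15 coding base 1887, chr3:107331178-107331206, minus strand: cagaggtgatcgGGACTtgcccagcagca

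These matches are a description of the letters, and whether the adenosines carry m6A in these cells was not measured here. The other members held between 1 match (Mettl14) and 7 matches (Zc3h13 and 1110037F02Rik (Virma)), so Rbm15 did not stand out by this count.

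Rbm15 had 531 UMIs in Ctrl and 1486 in cKO cells, or 12.1 (11.1 to 13.2) and 43.6 (41.4 to 45.8) CPM. The ratio was 3.60 (3.26 to 3.98), and 7 of the 11159 measured genes had a higher one. After each cell was thinned to 5500 UMIs, which left out 172 Ctrl and 244 cKO cells below that depth, 5.78% (5.10 to 6.52) of Ctrl and 18.3% (17.0 to 19.7) of cKO cells held an Rbm15 UMI. Before thinning, the same cells gave 10.5% and 28.5%. No cell type here lacks the complex, so there was no type to serve as a background for these shares. Cells with at least 3 Rbm15 UMIs numbered 11 of 4447 in Ctrl and 105 of 3577 in cKO, and the highest count in a cell was 4 and 8.

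Rbm15b, the paralogue with the same RNA-binding role, is a gene of 1 exon (ENSMUSG00000074102, chr9:106880918-106887428, minus strand). It overlaps Manf on its own strand and Dcaf1 on the other, so its count is uncertain wherever reads fall in the shared part. Its level was 22.6 (21.2 to 24.1) CPM in Ctrl and 24.7 (23.1 to 26.4) CPM in cKO cells. The interval of its ratio, 1.09 (0.996 to 1.20), held 1. Like Rbm15, it has a long coding exon, of 2661 bases.

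Wtap, the anchor of the catalytic pair (ENSMUSG00000060475, chr17:12966796-12994169, minus strand), was measured deeply, with 3139 and 3053 UMIs. It stood at 71.5 (69.1 to 74.1) in Ctrl and 89.5 (86.3 to 92.7) CPM in cKO, a ratio of 1.251 (1.19 to 1.32). After the thinning used for Rbm15, 32.0% (30.6 to 33.4) of Ctrl and 31.8% (30.3 to 33.4) of cKO cells held a Wtap UMI. Among all kept cells, 5.13% of Ctrl and 8.75% of cKO cells held at least 3 Wtap UMIs, and the highest count was 9 and 16. The higher level thus came with more UMIs in some cells and not with a larger share of positive cells. Zc3h13 (ENSMUSG00000022000, chr14:75284373-75344426, plus strand), which bridges WTAP to the RNA-binding proteins, stood at 70.3 (67.8 to 72.8) and 87.6 (84.5 to 90.8) CPM, a ratio of 1.247 (1.19 to 1.31). The ratios of Wtap and Zc3h13 lie on either side of the 25% threshold, and their intervals overlap almost in full. The scaffold 1110037F02Rik (Virma) (ENSMUSG00000040720, chr4:11485958-11550684, plus strand, with an antisense gene, Gm11831, inside the locus) lay close to these, at 18.6 (17.3 to 19.9) in Ctrl and 23.4 (21.8 to 25.1) CPM in cKO cells. Its ratio was 1.26 (1.14 to 1.39).

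Cbll1, the ubiquitin ligase of the complex (ENSMUSG00000020659, chr12:31484829-31499616, minus strand, overlapped by the antisense gene Gm29542), stood at 14.4 (13.3 to 15.6) in Ctrl and 23.0 (21.4 to 24.6) CPM in cKO. Its ratio of 1.60 (1.43 to 1.77) was the second highest of the members, with 415 of 11159 genes above it. Mettl16, the separate methyltransferase (ENSMUSG00000010554, chr11:74770830-74828525, plus strand), stood at 34.8 (33.1 to 36.6) and 46.6 (44.3 to 48.9) CPM, at a ratio of 1.34 (1.246 to 1.44).

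Counted together, 5 of the 9 members (Wtap, Rbm15, Cbll1, 1110037F02Rik (Virma) and Mettl16) were higher in cKO cells by more than 25%, where 17.3% of all measured genes were. At 2-fold it was Rbm15 alone, against 1.1% of all genes. The median log2 ratio was 0.32 over the members and 0.02 over all measured genes. Under TMM or median-of-ratios scaling, Wtap and 1110037F02Rik (Virma) did not pass 25% and the count was 3 of 9. Of all measured genes, 15.8% under TMM and 15.6% under the median of ratios passed. In basal cells the count was 6 of 9, with Zc3h13 added, where 16.6% of genes passed, and the 1 lower member was again Mettl3, where 10.4% did.

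**Figure D2:**
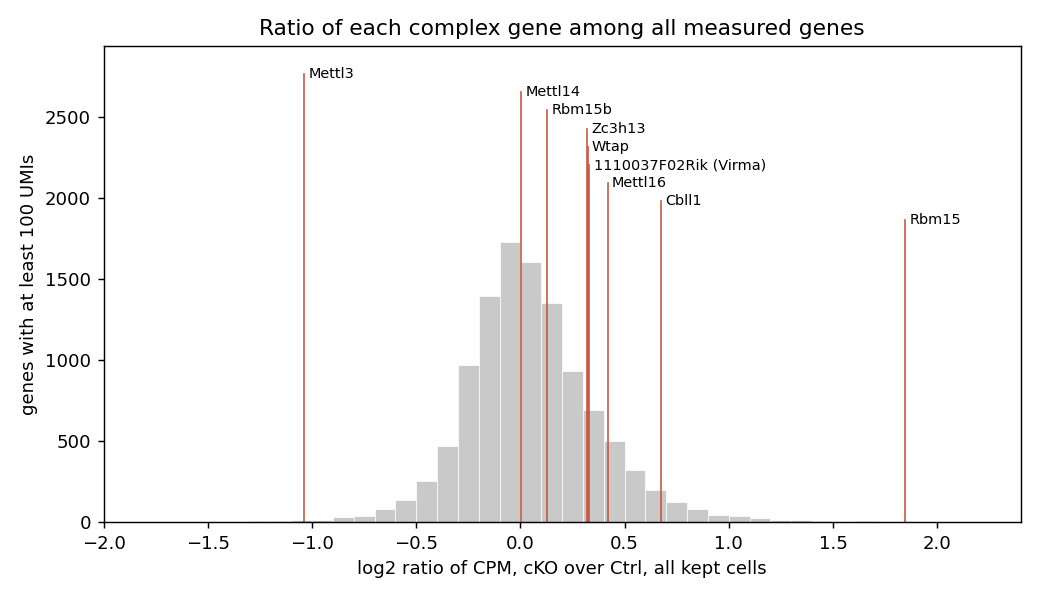
Grey bars count the genes with at least 100 UMIs in bins of 0.1 of the log2 ratio of CPM, cKO over Ctrl, in all kept cells (15 genes lie beyond the bars), and red lines mark the 9 complex genes. Mettl3 lies at -1.04 and Rbm15 at 1.85, both in the tails, Cbll1 at 0.67, and the other 6 members between 0.00 and 0.42. The height of a red line has no meaning.

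Levels were then read in each type of cell, gated on the UMIs of markers. The gates held 2999 Ctrl and 2003 cKO basal cells (Krt5 and Krt14), 461 and 356 early suprabasal cells (Krt1 and Krt10), 158 and 180 placode cells (Dkk4 or Fgf20), 84 and 100 follicle tip cells (Shh), 197 and 167 follicle progenitors (Sox9 with Lhx2) and 284 and 275 upper follicle cells (Krt79). Another 208 Ctrl and 440 cKO cells, 4.68% and 12.3%, met no gate, and the summed epithelial markers of gated basal cells were lower in the cKO library (15197 against 21046 CPM), so the keratin threshold takes unequal shares of the libraries. Late suprabasal (9 and 5 cells), Merkel (37 and 28 cells) and neural crest or mesenchymal cells (10 and 23 cells) were too few to compare. The last of these held mixed markers in cKO. The 6 fibroblast markers summed to 3228 CPM with none at 0 (2850 CPM in Ctrl), and Dcn alone stood at 1186 CPM in cKO. The 3 Schwann cell markers summed to 139 CPM. These fibroblast and Schwann cell markers are part of the gate, so their sums do not check it. The 4 melanocyte markers were at 0 in cKO and summed to 7065 CPM in Ctrl, and Dct, Pmel and Mitf among them are also part of the gate. Krt1 and Krt10 stood at 2533 and 3473 CPM in cKO, and at 11.9 and 154 CPM in Ctrl. This gate thus held unlike cells in the 2 libraries. Shh and Lhx2, markers of follicle gates, stood at 267 and 187 CPM in cKO. In these 3 small groups no member had more than 30 UMIs in a library, and Mettl3 had 0 UMIs in the 28 cKO Merkel cells, which allows up to 15.2 CPM at 3 counts.

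Mettl3 was lower in the cKO library in each of the 5 types with at least 20 UMIs over both libraries, and all 5 intervals lay below 1. In basal cells it went from 11.9 to 6.49 CPM, a ratio of 0.544 (0.439 to 0.670). In early suprabasal cells it went from 11.2 to 3.94 CPM, at 0.352 (0.189 to 0.618), and in placode cells from 17.9 to 6.50 CPM, at 0.364 (0.164 to 0.751). The lowest ratio was in follicle progenitors, with 17.4 and 3.98 CPM from 37 and 7 UMIs, at 0.229 (0.0860 to 0.519). In upper follicle cells 14.9 and 8.16 CPM gave 0.548 (0.297 to 0.981). Follicle tip cells, with 12 and 5 UMIs, pointed the same way without an interval clear of 1, at 0.361 (0.0996 to 1.10).

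Rbm15 was higher in the cKO library in all 6 types, with every interval above 1. Basal cells went from 11.7 (10.5 to 13.1) to 45.1 (42.1 to 48.2) CPM, a ratio of 3.84 (3.38 to 4.36). In early suprabasal cells 12.5 and 33.7 CPM gave 2.70 (2.01 to 3.67), and in upper follicle cells 13.2 and 49.4 CPM gave 3.73 (2.50 to 5.70). Placode cells had the highest ratio, 5.06 (2.63 to 10.7), on 11 and 58 UMIs, at 6.78 and 34.3 CPM. Follicle progenitors had the lowest, 2.29 (1.58 to 3.34), where the Ctrl level was already 21.6 CPM and the cKO level was 49.4 CPM. Follicle tip cells lay between them, at 3.79 (1.73 to 9.45) on 8 and 35 UMIs. The intervals of all 6 types overlapped one another apart from those of basal cells and follicle progenitors, and the differences between types were not tested. With cells split further into cycling and resting, Rbm15 was higher in cKO in 9 of the 9 groups with at least 20 UMIs over both libraries, at ratios of 2.23 to 5.16. Groups could pass this limit through their cKO UMIs, so the count favours higher ratios.

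**Figure D3:**
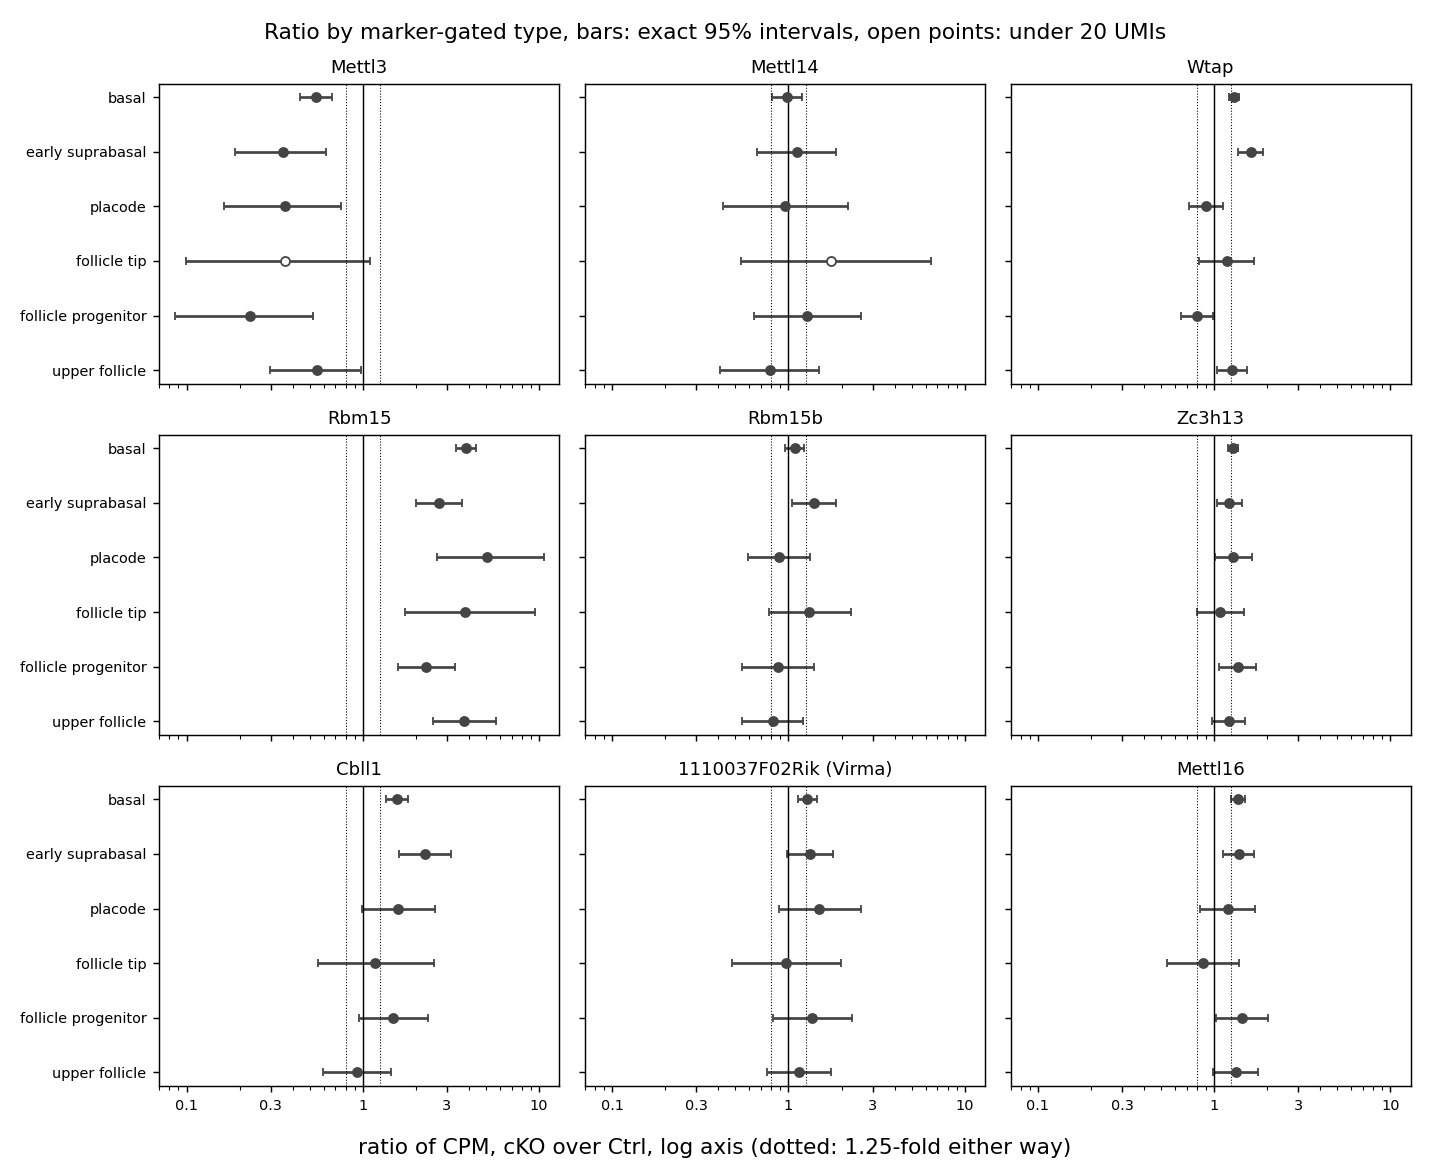
Ratio of CPM, cKO over Ctrl, of each complex gene (panels) in the 6 marker-gated types with at least 50 cells per library, on a log axis with exact 95% intervals. Open points rest on under 20 UMIs, and dotted lines mark 25% higher and 20% lower. All Rbm15 points lie to the right of 1 and all Mettl3 points to the left, while Wtap points lie on both sides.

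The level of Wtap in Ctrl cells ran over types from 114 (100 to 130) CPM in follicle progenitors and 102 (86.7 to 118) CPM in placode cells, through 81.1 CPM in upper follicle, 69.0 CPM in basal and 62.4 CPM in follicle tip cells, to 50.7 (44.9 to 57.0) CPM in early suprabasal cells. The ratio of the highest to the lowest was 2.26 (1.89 to 2.69), and the steps from placode to upper follicle and from upper follicle to basal cells had intervals that left out 1, while the other 3 steps did not. In cKO cells the same types lay closer together, between 73.4 CPM in follicle tip and 103 CPM in upper follicle cells, a ratio of 1.40 (1.08 to 1.84), and no step between neighbours left out 1. By type, the ratio of cKO to Ctrl was 1.61 (1.37 to 1.90) in early suprabasal, 1.30 (1.22 to 1.39) in basal and 1.27 (1.04 to 1.54) in upper follicle cells, and it was 0.801 (0.652 to 0.981) in follicle progenitors. Placode cells, at 0.902 (0.719 to 1.13), and follicle tip cells, at 1.18 (0.821 to 1.69), had intervals that held 1.

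Zc3h13 was higher in cKO cells in 6 of 6 types, at ratios of 1.09 to 1.36, with 4 intervals above 1. Mettl16 was higher in 5 of 6, at 0.866 to 1.44, with 3 intervals above 1. Cbll1 was higher in 5 of 6 and reached 2.24 (1.60 to 3.16) in early suprabasal cells, from 10.6 to 23.9 CPM, while in upper follicle cells 19.4 and 18.0 CPM gave 0.927 (0.597 to 1.44). The ratio of 1110037F02Rik (Virma) ran from 0.968 to 1.497 over the 6 types, with 1 interval above 1, in basal cells. Rbm15b ranged from 0.813 to 1.40, with 1 interval above 1, in early suprabasal cells. Mettl14 lay between 0.789 and 1.28 in 5 types, and all 5 intervals held 1.

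Within Ctrl cells, the highest type exceeded the lowest by an interval clear of 1 for Wtap, Rbm15, Rbm15b, Zc3h13 and Cbll1. For Rbm15 this was 21.6 CPM in follicle progenitors against 6.78 CPM in placode cells, a ratio of 3.19 (1.63 to 6.84), and in cKO cells 49.4 against 33.7 CPM in early suprabasal cells, at 1.47 (1.11 to 1.93). The highest and lowest of 6 types were picked by their values, so these intervals overstate the difference. For Mettl3, Mettl14, 1110037F02Rik (Virma) and Mettl16 the interval of highest against lowest held 1 in Ctrl cells, although for Mettl3 that of follicle progenitors against early suprabasal cells, 1.55 (1.004 to 2.38), just left it out.

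Cells were also split by the cell cycle, since 66.2% of Ctrl and 69.9% of cKO cells passed a gate on S-phase or on G2- and M-phase genes. In basal cells the gate took 69.9% and 75.4%. Rbm15 was higher in cycling than in resting basal cells of both libraries. In Ctrl basal cells it stood at 8.71 (6.71 to 11.1) CPM in resting and 12.8 (11.3 to 14.4) CPM in cycling cells, and in cKO basal cells at 27.5 (22.6 to 33.3) and 49.5 (46.0 to 53.2) CPM. The ratios of cycling to resting were 1.47 (1.11 to 1.96) and 1.80 (1.46 to 2.22). Cells with G2- and M-phase genes stood against resting cells at 1.59 (1.20 to 2.14) in Ctrl and 1.95 (1.59 to 2.41) in cKO, and cells with S-phase genes alone at 1.05 (0.700 to 1.55) and 1.14 (0.853 to 1.53). These phases share the resting cells they are set against, their intervals overlap in Ctrl, and the difference between them was not tested. The cKO level exceeded the Ctrl level in resting basal cells by 3.16 (2.30 to 4.38) and in cycling basal cells by 3.87 (3.37 to 4.46), so the difference between libraries was present in both.

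**Figure D4:**
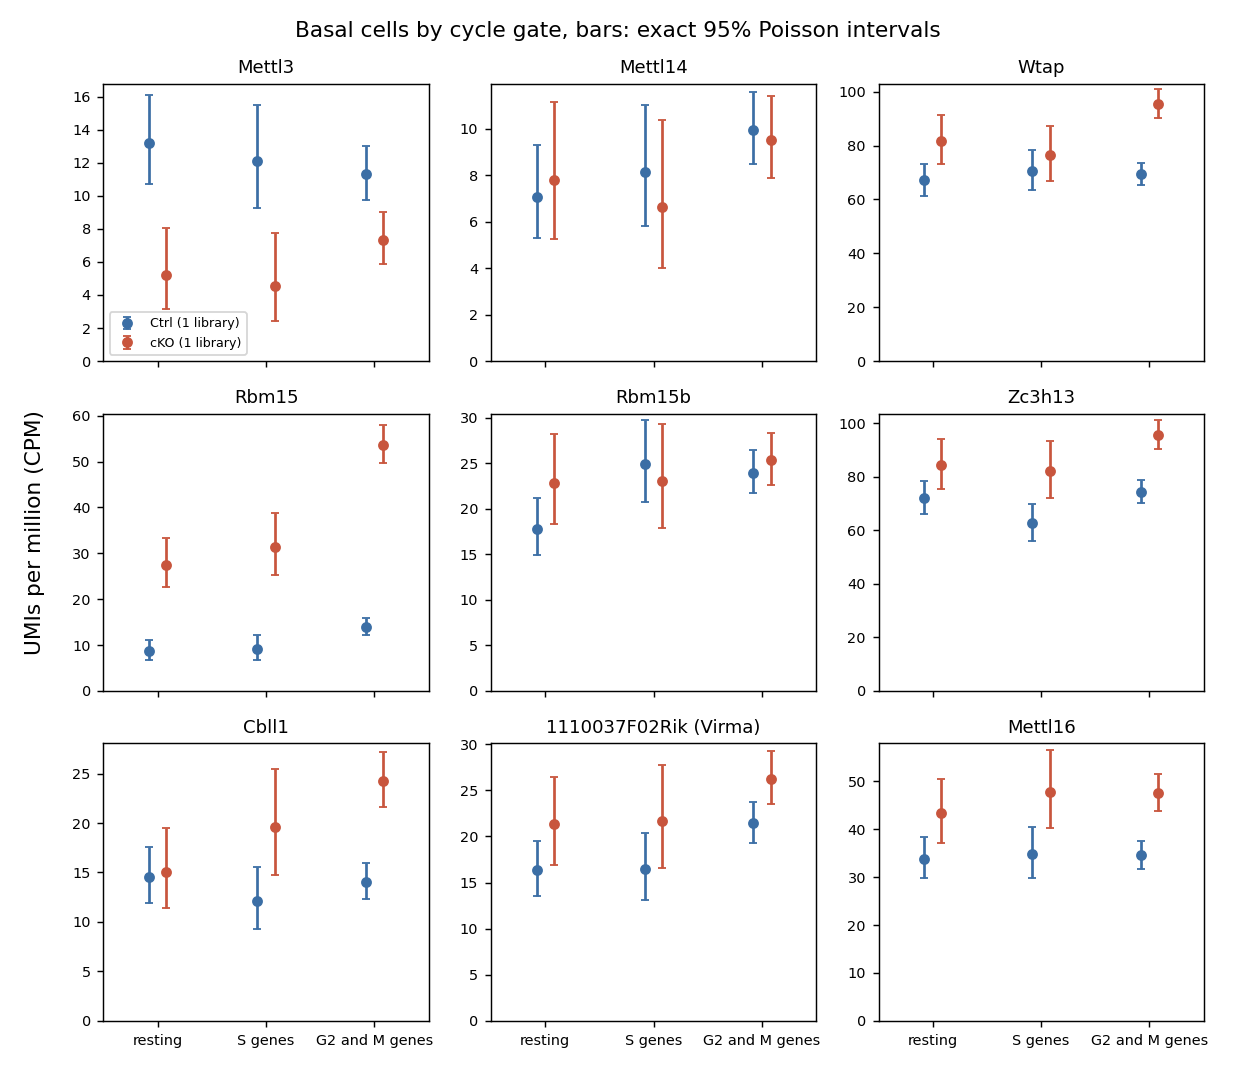
Level of each complex gene in basal cells of the Ctrl (blue) and cKO (red) library that were resting, carried S-phase genes alone or carried G2- and M-phase genes, as CPM on an axis from 0 with exact 95% Poisson intervals. Rbm15 is highest with G2- and M-phase genes in both libraries, at 13.9 and 53.7 CPM, and Cbll1 separates between libraries in cycling cells but not in resting cells.

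In basal cells, the ratio of Cbll1 between the libraries differed by cycle stage. In resting basal cells it stood at 14.6 (11.9 to 17.6) CPM in Ctrl and 15.1 (11.4 to 19.5) CPM in cKO, a ratio of 1.03 (0.738 to 1.44). In cycling basal cells it stood at 13.6 (12.1 to 15.3) and 23.4 (21.0 to 25.9) CPM, a ratio of 1.72 (1.47 to 2.01). The 2 intervals did not overlap, and the difference itself was not tested. In early suprabasal cells no such split was seen, with ratios of 2.79 (1.56 to 5.13) in resting and 1.84 (1.21 to 2.82) in cycling cells.

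By more than 25%, 3 of 9 members were higher in cycling than in resting basal cells of Ctrl (Mettl14, Rbm15 and Rbm15b), where 15.6% of genes were, and 3 of 9 in cKO (Mettl3, Rbm15 and Cbll1), where 18.5% were. None was lower by 20%, where 11.5% of genes in Ctrl and 10.5% in cKO were. Among these, the intervals left out 1 for Rbm15 in both libraries, for Rbm15b in Ctrl at 1.36 (1.12 to 1.66) and for Cbll1 in cKO at 1.55 (1.17 to 2.08), and they held 1 for Mettl14 in Ctrl at 1.34 (0.986 to 1.86) and for Mettl3 in cKO at 1.31 (0.806 to 2.23). With all gate thresholds divided or multiplied by 2, Rbm15 passed 25% each time in both libraries. The others did not: the log2 ratio was 0.27 and 0.13 for Rbm15b in Ctrl, 0.05 for Mettl14 in Ctrl and 0.26 for Mettl3 in cKO with thresholds divided, and 0.29 for Cbll1 in cKO with thresholds multiplied. Wtap, Zc3h13 and Mettl16 stayed within these limits of their resting level in both libraries, at ratios of 0.995 to 1.12. For 1110037F02Rik (Virma) the ratio was 1.24 (1.01 to 1.53) in Ctrl and 1.19 (0.937 to 1.53) in cKO.

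Whether the members moved with Mettl3 from cell to cell was read within each library, where 521 Ctrl cells and 205 cKO cells held a Mettl3 UMI. Rbm15 stood at 14.1 CPM in Ctrl cells with and 11.8 CPM in Ctrl cells without one, a ratio of 1.19 (0.930 to 1.52), while the cKO values of 38.5 and 43.9 CPM gave 0.878 (0.694 to 1.10). For all 8 other members, in both libraries, the interval of this ratio held 1. At about 1 Mettl3 UMI per positive cell, a cell without one may still express the gene.

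RNA outside cells was read from barcodes of 10 to 100 UMIs, which are too poor to be cells. There Rbm15 stood at 10.9 (8.23 to 14.1) CPM in Ctrl and 54.4 (47.2 to 62.5) CPM in cKO, at a ratio of 4.999 (3.70 to 6.85), so the difference seen in cells was also in the free RNA. Mettl3 stood there at 7.97 (5.72 to 10.8) and 7.24 (4.77 to 10.5) CPM, a ratio of 0.908 (0.537 to 1.51), beside 6.18 CPM in cKO cells. These values are shares of the free RNA, and how much free RNA the count of a cell holds was not measured. After 5% of each library was subtracted as free RNA, the log2 ratios in cells were -1.08 for Mettl3 and 1.82 for Rbm15.

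Other genes of the m6A pathway were read as a list of 34, all with at least 100 UMIs. Of the 12 readers, proteins that bind the mark or RNA near it, 4 were higher by more than 25% in cKO and 1 was lower by more than 20%, beside the 17.3% and 8.41% of all measured genes. The first group was 4 of the 5 YTH proteins on the list, with Ythdf2, which sends marked RNA to decay, at 77.5 and 134 CPM and a ratio of 1.72 (1.65 to 1.80), and Ythdc1, the nuclear reader, at 99.9 and 148 CPM and 1.48 (1.42 to 1.54). Ythdf1 stood at 1.27 (1.18 to 1.37) and Ythdf3 at 1.28 (1.17 to 1.39), and the fifth, Ythdc2, did not pass, at 1.19 (1.03 to 1.37). Rbmx, an X-linked RNA-binding protein, was lower at 0.507 (0.471 to 0.546). Genotype and sex cannot be told apart here, and the cause was not tested.

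Of the 2 erasers, which remove methyl groups, Alkbh5 was higher at 1.33 (1.247 to 1.43), from 38.5 to 51.3 CPM, and Fto, at 0.891 (0.830 to 0.957), lay within the limits. Of 14 other RNA methyltransferase genes 1 was past them, a smaller share than the 17.3% of all genes that were higher, and this was Mettl6, a transfer RNA enzyme, at 1.34 (1.23 to 1.47). Among the 6 genes of methyl donor supply, Mat2b, the regulatory subunit of the donor synthetase, was lower at 0.781 (0.743 to 0.821). The median log2 ratio was 0.06 for readers, 0.12 for erasers, 0.09 for other methyltransferases and -0.16 for methyl donor supply, against 0.32 for the complex.

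Genes whose level most resembled a member's over the 12 combinations of library and type were sought for the 4 members with at least 20 UMIs in each, among 4599 genes. For Wtap these were Jkamp, Ddx17 and Mcl1 (Pearson r of log2 CPM 0.88, 0.87 and 0.82), for Rbm15b Plekha7, Mrpl37 and Arglu1 (0.91, 0.87 and 0.86), for Zc3h13 Luzp1, Spr and Hsph1 (0.95, 0.93 and 0.91) and for Mettl16 Tradd, Myeov2 and Uqcc3 (0.91, 0.90 and 0.87). The genes were picked as the highest of 4599 over only 12 points, so their r values overstate the resemblance. The 12 points come from only 2 libraries and share their depth, so these values are a description.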

How the data were processed

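UMI counts per gene and barcode were deposited by the authors as 2 unfiltered matrices that list 737280 barcodes each. They were made with Cell Ranger on mm10 (the submitters' notes give version 2.0, the methods a later one), and no normalization had been applied. The annotation release was not given in the sources used here. Members and lists were chosen with earlier results of these data known. The study's cell filter, a minimum of 1800 genes, was applied to the unfiltered matrices. More cells were kept than the paper reports, mainly in cKO, so the cells are not the same set. No doublets were removed. Scrublet in scanpy 1.11.5 marked 0.135% of Ctrl and 0.0839% of cKO cells, which does not show how many doublets the libraries hold. Without the 4% of cells with the highest Scrublet scores, the log2 ratios were -1.08 for Mettl3 and 1.86 for Rbm15.

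A cell took the first gate it met: Merkel (at least 3 UMIs), neural crest or mesenchymal (5 UMIs with under 10 Krt5 and Krt14 UMIs per 10000), suprabasal (20 per 10000, late with 2 UMIs of late genes), placode, follicle tip, follicle progenitor and upper follicle (2 UMIs) and basal (40 per 10000). Cycling cells held at least 20 UMIs per 10000 of 25 S-phase genes or 10 of 26 G2- and M-phase genes. Thresholds were set on marker distributions after these had been seen. UMIs were summed per library and type and scaled to the total. Named genes are the 9 members, pathway genes over 25% higher or 20% lower with at least 100 UMIs, and the 3 genes most like a member. 1 pathway gene that this rule names is not reported here. Positions, exons and coding sequences came from GENCODE vM21 (GRCm38), which matched 27722 of 27998 gene identifiers, and coding sequences came from the transcript with the longest coding region. Python 3.11.15, numpy 2.4.6, scipy 1.17.1, pandas 2.3.3 and matplotlib 3.10.9 were used, and edgeR 4.0.16 and DESeq2 1.42.0 in R 4.3.3 gave the alternative scaling factors. The interval functions were tested on simulated Poisson counts, the error that they assume, so variation between cells was not part of that test. Other scaling, cell filters, gate thresholds, and handling of free RNA and doublets were tried as alternatives.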

Additional observations from a re-analysis of the deposited data

Results flagged for a closer look

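Signal was found outside the kept cells. In cKO barcodes of 10 to 100 UMIs, Rbm15 stood at 54.4 CPM, Wtap at 125 CPM and Zc3h13 at 45.1 CPM, each with an interval of the ratio to the same barcodes of Ctrl that lay above 1. These ratios were 4.999 (3.70 to 6.85), 1.61 (1.40 to 1.84) and 1.30 (1.05 to 1.62).

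Wtap lay on opposite sides of 1 in different types. The ratio of cKO to Ctrl was 1.61 in early suprabasal cells and 0.801 in follicle progenitors, with intervals on either side of 1, and the difference was not tested.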

How the results depend on the processing

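No paired analysis was possible because each genotype has 1 library. Each of 11 other settings kept Mettl3 over 20% lower and Rbm15, Cbll1 and Mettl16 over 25% higher, with log2 ratios of -1.20 to -0.96, 1.73 to 1.88, 0.48 to 0.71 and 0.38 to 0.43. Wtap and 1110037F02Rik (Virma) passed in 6 of 11 each and Zc3h13 in 3. The count of members over 25% higher, 5 here, was 3 under TMM and 3 under the median of ratios, where 15.8% and 15.6% of all genes were. With the scaling used here, the share of all genes was 17.3% over 25% higher and 8.41% over 20% lower. With genes from 1 UMI it was 27.3% and 20.1%, and at 1.5-fold it was 5.45% and 2.12%.

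Resting cells alone gave Rbm15b a log2 ratio of 0.38, past 25%, in place of 0.13. They gave lower values for Zc3h13, at 0.16 in place of 0.32, and for Cbll1, at 0.48 in place of 0.67. With gate thresholds divided by 2, Mettl14 in follicle progenitors turned to -0.11 from 0.35 on the log2 scale, and cycling against resting basal Rbm15 went to 1.13 in Ctrl and 1.60 in cKO from 0.55 and 0.85. With thresholds multiplied by 2, that of Rbm15b in Ctrl went to 0.13 from 0.44. The cause was not tested. Of the ratios by type and by cycle, 65 of 70 stayed inside the interval with thresholds divided by 2 and 63 of 67 with thresholds multiplied by 2. Chosen after seeing the data, 3 alternatives (without the 16 shared barcodes, without the ungated and small groups, and with cKO types weighted as in Ctrl) gave 1.82 to 1.84 for Rbm15 and -1.07 to -1.04 for Mettl3.

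Depth limits the follicle types, where Mettl3 and Mettl14 rest on 5 to 37 UMIs a library, and sex, embryo and library cannot be told apart from genotype.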
